A study of Mus musculus with 10 samples.

Results

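Igfbpl1, BC048679, Ap3b2, Pdzd4 and Plekhg3 are 5 of the 389 genes that the study defined as PGCLC genes, and they were chosen by the size of their fall in dCD cells relative to WT cells of d4 EB. The R1 data hold 386 of the 389 under the same symbol. Because measured values chose these genes, their fall in dCD cells is given as a description and supports nothing. A working name for the set, genes lost in dCD cells, went further than the data: transcripts of all 5 genes were still counted in dCD cells, at lower levels.

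Primordial germ cells (PGC) are the embryonic founders of sperm and eggs, and in the mouse they arise when BMP signals reach competent cells of the early post-implantation epiblast. In culture, naive ESC are first turned into epiblast-like cells (EpiLC), which form PGC-like cells (PGCLC) once aggregated into embryoid bodies (EB) with BMP4 and other cytokines. Primed epiblast stem cells (EpiSC) have largely lost this ability. The 5 genes have no shared textbook role in germ cells. Igfbpl1 encodes a secreted protein related to the insulin-like growth factor binding proteins. Ap3b2 encodes a beta subunit, best known from neurons, of the AP-3 adaptor complex that sorts cargo into vesicles. Plekhg3 encodes a protein with a pleckstrin homology domain, Pdzd4 a protein with a PDZ domain, and BC048679 a protein that still carries the name of a cDNA clone.

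The study asked how enhancers of PGCLC genes are prepared before germline induction, and profiled single cells by droplet-based RNA-seq with 1 library per condition. Wild type E14Tg2a, a male mouse ESC line, gave 8 libraries: ESC in 2i with LIF (2i ESC), ESC in serum with LIF (S+L ESC), EpiLC after 1, 2 and 3 days (d1, d2 and d3 EpiLC), EpiSC, and EB after 2 and 4 days (d2 and d4 EB). R1, also a male mouse ESC line, gave d4 EB of WT cells and of Mll3/4 dCD cells, whose point mutations in Kmt2c and Kmt2d (also named Mll3 and Mll4) remove the methyltransferase activity of both proteins. The dCD line was derived from WT R1 through single edited cells, so clone and mutation cannot be told apart. The E14Tg2a libraries used an earlier version of the library kit than those of R1, and R1 cells were deposited only if they had at least 2000 detected genes, so levels are not compared across the lines.

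Total UMIs ranged from 8757170 in 2i ESC to 22887974 in R1 dCD d4 EB. In E14Tg2a the study listed 91 cells of d2 EB as d2 PGCLC and 44 cells of d4 EB as d4 PGCLC, leaving 446 and 324 remaining EB cells. In R1, cells were selected as Prdm1orDppa3+/Klf4−, that is with Dppa3 above 0.1 or Prdm1 above 1 and with Klf4 below 1 UMI. This gave 86 of 1416 WT cells (6.07%) and 97 of 1699 dCD cells (5.71%). Median UMIs per cell were 15403.5 in selected WT cells and 13958 in selected dCD cells. Levels are CPM, the UMIs of a gene scaled by all UMIs of the group, with exact Poisson intervals at 95%, and intervals of ratios and shares are exact as well. All intervals cover counting error only. With 1 library per group no test between groups was possible, and no difference has a replicate check. No cell barcode was shared between the R1 libraries (0), and pairs of E14Tg2a libraries shared 0 to 2.

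Kmt2c and Kmt2d were transcribed in both R1 lines. Kmt2c was at 47.5 CPM in WT and 53.8 CPM in dCD d4 EB, and Kmt2d at 29.4 and 29.1 CPM. In selected cells Kmt2c was at 54.1 CPM in WT and 50.0 CPM in dCD, and Kmt2d at 27.1 and 23.6 CPM. The mutations change single amino acids, so transcript levels do not check the genotype.

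All 5 genes were lower in selected dCD cells than in selected WT cells by at least 2-fold on the log2(CPM + 1) scale, the contrast on which they were picked. Among 6338 genes with at least 50 UMIs in these cells, 1.92% were at least 2-fold lower and 8.79% at least 2-fold changed, and nothing is read from the comparison with those shares. Igfbpl1, the secreted protein, had 74 UMIs in selected WT cells (52.7 CPM, 41.4 to 66.2) and 6 UMIs in selected dCD cells (4.17 CPM, 1.53 to 9.07). BC048679 had 61 UMIs in WT (43.5 CPM, 33.2 to 55.8) and 9 in dCD (6.25 CPM, 2.86 to 11.9). For neither gene did the WT and dCD intervals overlap, and WT was 12.7-fold higher for Igfbpl1 (5.54 to 35.6) and 6.95-fold higher for BC048679 (3.43 to 15.9). Ap3b2, the adaptor subunit, had 177 UMIs in WT (126 CPM, 108 to 146) and 39 in dCD (27.1 CPM, 19.3 to 37.0). Plekhg3, the pleckstrin homology gene, went from 75 UMIs in WT (53.4 CPM, 42.0 to 67.0) to 17 in dCD (11.8 CPM, 6.88 to 18.9). Pdzd4 went from 86 UMIs (61.3 CPM, 49.0 to 75.7) to 23 (16.0 CPM, 10.1 to 24.0). These genes were likewise apart in their intervals, with WT higher by 4.66-fold for Ap3b2 (3.28 to 6.77), 4.53-fold for Plekhg3 (2.65 to 8.18) and 3.84-fold for Pdzd4 (2.40 to 6.37). After thinning only 1 of the 5 passed both the 50-UMI minimum and the threshold, and in cells chosen by at least 2 of 4 PGC markers the log2 ratio of Pdzd4 was −1.20.

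**Figure D1:**
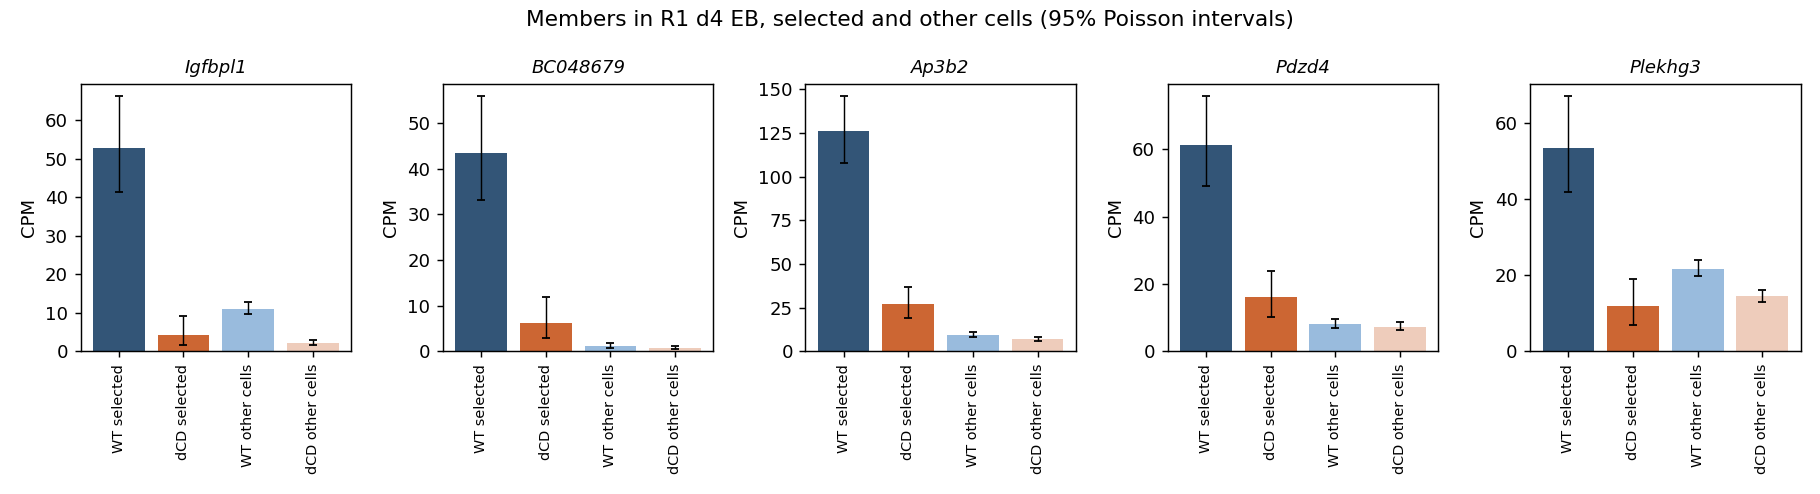
CPM of each gene (vertical axis, a scale of its own in each panel) in selected and other cells of R1 WT and dCD d4 EB, with bars for summed UMIs and lines for 95% Poisson intervals. Selected WT cells stand highest in every panel, and Igfbpl1 falls from 52.7 to 4.17 CPM between selected WT and dCD cells.

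Which genes make up the 5 largest falls depended on how the selection thresholds were read. With thresholds applied to UMIs, 290 PGCLC genes had at least 50 UMIs, and the falls of Igfbpl1 (log2 ratio −3.38), BC048679 (−2.62), Ap3b2 (−2.18), Plekhg3 (−2.09) and Pdzd4 (−1.88) ranked 1, 2, 4, 6 and 9. Others among the first 9 were A830018L16Rik (−2.30), Dnd1 (−2.15), Elavl2 (−2.04) and Mbp (−1.89). With thresholds applied to log-normalized values, which gave 89 WT and 118 dCD cells and 319 genes, the 5 genes held ranks 1 to 5. Plekhg3 was then the last inside at −1.96, and Dnd1 (−1.95) and Elavl2 (−1.92), genes of RNA-binding proteins, were next outside. The boundary between Plekhg3 and Dnd1 was thus a difference of no weight in counts. Among PGCLC genes, with thresholds on UMIs, 158 of the 290 were lower and 132 higher. At least 2-fold lower were 28 (9.66%, against 1.92% of all genes) and at least 2-fold higher 36 (against 6.86% of all genes higher), with a median log2 ratio of −0.06 against 0.06 over all 6338 genes.

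**Figure D2:**
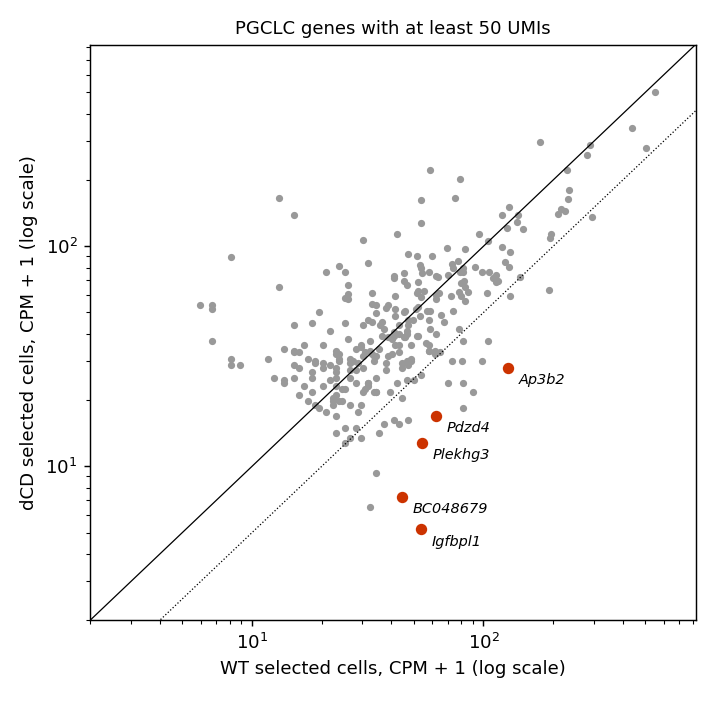
Each point is 1 of 290 PGCLC genes with at least 50 UMIs, at its CPM + 1 in selected WT cells (horizontal, log scale) and selected dCD cells (vertical, log scale), with a solid line at equal levels and a dotted line at 2-fold lower in dCD. The 5 genes (red, named) lie below the dotted line, while 36 genes lie at least 2-fold above equality.

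Fewer dCD cells held any transcript of these genes. Ap3b2 was detected in 76.7% of selected WT cells and 21.6% of selected dCD cells, and after thinning every cell to 6831 UMIs in 53.5% and 12.4%. Igfbpl1 was detected in 40.7% and 6.19% (thinned 26.7% and 3.37%), and BC048679 in 30.2% and 6.19% (thinned 19.8% and 3.37%). Pdzd4 was found in 55.8% and 15.5% (thinned 31.4% and 10.1%), and Plekhg3 in 54.7% and 12.4% (thinned 27.9% and 4.49%). In every case the share was lower in dCD at equal depth. To gauge free RNA, the 111 dCD cells of cluster 1, which was led by the collagen gene Col3a1 and had a median of 12183 UMIs, held Ap3b2 in 0.901% (0.0228 to 4.92), Igfbpl1 in 1.80% (0.219 to 6.36), BC048679 in 0% (0 to 3.27), Pdzd4 in 6.31% (2.57 to 12.6) and Plekhg3 in 18.0% (11.4 to 26.4). Ap3b2 alone had an interval in selected dCD cells (13.9 to 31.2) apart from these, and for the other 4 genes the intervals overlapped. The gauge depends on the cluster: Pdzd4 was detected in 2.67% of dCD cells of cluster 4 (1.39 to 4.61), apart from selected dCD cells (8.92 to 24.2), and cluster 1 need not lack Plekhg3. In the other direction, Ap3b2 was detected in 13.5% of dCD cells of cluster 3 (10.6 to 16.9), which overlaps its interval in selected dCD cells. Against all other dCD cells, levels in selected dCD cells were 8.38-fold higher for BC048679 (3.26 to 20.1), 3.95-fold for Ap3b2 (2.70 to 5.66) and 2.17-fold for Pdzd4 (1.34 to 3.37), and not apart for Igfbpl1 (1.86, 0.651 to 4.36) and Plekhg3 (0.817, 0.470 to 1.33). The value of BC048679 rests on 9 UMIs, of which 4 came from a single cell.

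Cells with several of the genes were counted as well, and their number follows in part from the shares of the single genes. At least 3 of the 5 were detected in 47 of 86 selected WT cells (54.7%, 43.5 to 65.4) and in 4 of 97 selected dCD cells (4.12%, 1.13 to 10.2). None was detected in 4.65% of selected WT cells and 54.6% of selected dCD cells. After thinning, at least 3 were detected in 18.6% of selected WT and 1.12% of selected dCD cells, and none in 15.1% and 71.9%. In thinned selected WT cells, BC048679 was detected in 17.4% of cells with Igfbpl1 and 19.8% of all, and Ap3b2 in 82.4% of cells with BC048679 and 53.5% of all. Thinned d2 PGCLC of E14Tg2a did not repeat this, with 23.1% and 16.5% for BC048679 and 20.0% and 22.0% for Ap3b2. All 5 were found in 3 selected WT cells and in 0 of 97 selected dCD cells.

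Outside the selected cells the genes differed in how far WT and dCD were apart. Igfbpl1 was at 11.1 CPM in other WT cells and 2.24 CPM in other dCD cells, a WT to dCD ratio of 4.96 (3.61 to 6.94). Plekhg3 was at 21.7 CPM in other WT and 14.5 CPM in other dCD cells, a dCD to WT ratio of 0.665 (0.572 to 0.772), and Ap3b2 at 9.54 and 6.85 CPM, 1.39-fold higher in WT (1.11 to 1.74). These differences rested in part on 89 other WT cells that clustering placed with PGC-like cells. Igfbpl1, Ap3b2, BC048679 and Pdzd4 are among the leading genes of those clusters, so leaving the clusters out is not independent of the genes. Without the cells of those clusters, Igfbpl1 was at 4.22 CPM in WT (3.32 to 5.28) and 2.20 CPM in dCD (1.61 to 2.92), and Plekhg3 at 19.5 and 14.4 CPM. Ap3b2 then turned around, at 2.33 CPM in WT (1.68 to 3.15) and 6.73 CPM in dCD (5.67 to 7.92). BC048679 was then at 0.166 CPM in WT (0.0343 to 0.486, 3 UMIs) and 0.747 CPM in dCD (0.427 to 1.21, 16 UMIs), and these intervals overlapped. Pdzd4 was then at 6.60 CPM in WT and 7.24 CPM in dCD, with overlapping intervals. With the clustering that left out the 5 genes, however, Pdzd4 was at 1.85 CPM in WT (1.25 to 2.64) and 6.87 CPM in dCD (5.80 to 8.08). BC048679 was also apart with that clustering, at 0 UMIs in WT (0 to 0.227 CPM) and 0.753 CPM in dCD (0.431 to 1.22). Over all other cells, Pdzd4 was at 8.24 and 7.37 CPM (1.12-fold, 0.891 to 1.40) and BC048679 at 1.15 and 0.746 CPM (1.54-fold, 0.771 to 3.13), differences within counting error.

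Over all d4 EB cells, Igfbpl1, BC048679 and Ap3b2, 3 of the 5 genes, fell by at least 2-fold in dCD, against 4.45% of 11842 genes with at least 100 UMIs (10.5% changed in either direction). These cells include the selected ones, so the count describes the same choice. PGCLC genes as a list went the other way: of 378 with at least 100 UMIs, 126 were at least 2-fold higher, where 6.00% of all genes were. Only 6 were at least 2-fold lower (1.59%), and the median log2 ratio was 0.67. Igfbpl1 was at 13.9 CPM in WT and 2.36 CPM in dCD, BC048679 at 4.03 and 1.09 CPM, and Ap3b2 at 17.5 and 8.13 CPM. Pdzd4 (11.9 and 7.91 CPM) and Plekhg3 (23.9 and 14.3 CPM) were lower by less than 2-fold. The log2 ratio of Ap3b2, −1.02, was at the edge of the threshold, and the count of 3 became 1 with cells thinned, with the mean over cells, or with only cells of at least 3000 genes.

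How much of a gene's transcript came from selected cells separated the 5 genes. In WT d4 EB, selected cells held 6.82% of all UMIs but 73.5% of the UMIs of BC048679 (62.7 to 82.6) and 49.2% of those of Ap3b2. They held 35.2% for Pdzd4, 25.8% for Igfbpl1 and 15.2% for Plekhg3. In dCD d4 EB, where selected cells held 6.29% of all UMIs, the shares were 36.0% for BC048679, 21.0% for Ap3b2, 12.7% for Pdzd4, 11.1% for Igfbpl1 and 5.20% for Plekhg3. In WT, BC048679 was thus the most restricted to selected cells and Plekhg3 the most widely spread. These shares depend on the selection: the 89 unselected WT cells that clustered with PGC-like cells held 47.7% of the UMIs of Igfbpl1 and 39.2% of those of Ap3b2. They held 22.9% for BC048679, 16.0% for Pdzd4 and 13.4% for Plekhg3. In dCD the order rests on few UMIs: the interval of BC048679 (18.0 to 57.5) overlapped that of Ap3b2 (15.4 to 27.5), and that of Plekhg3 (3.06 to 8.19) overlapped that of Igfbpl1 (4.19 to 22.6).

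The 2 markers that select the cells did not contribute equally in the lines. Of the selected WT cells, 21 passed through both Dppa3 and Prdm1, 38 through Dppa3 only and 27 through Prdm1 only. Of the selected dCD cells, 10 passed through both, 63 (64.9%) through Dppa3 only and 24 through Prdm1 only. In WT, Igfbpl1 was highest in cells selected through Prdm1 only (107 CPM, 78.4 to 144) and lower with Dppa3 only (25.8 CPM, 14.4 to 42.6) or both (34.7 CPM, 19.0 to 58.2). BC048679 was instead lowest where Igfbpl1 was highest, with 1 UMI in Prdm1 only cells (2.39 CPM, and likewise 1 UMI or 2.90 CPM in such dCD cells), 41.3 CPM with Dppa3 only and 89.2 CPM with both. Ap3b2 was high in all 3 classes of WT cells, at 78.8, 120.4 and 183 CPM in the same order, whereas in dCD cells it was at 17.4, 27.7 and 41.5 CPM. In the 10 dCD cells that passed through both markers, Igfbpl1 and BC048679 had 0 UMIs, which at a limit of 3 counts allows up to 15.6 CPM.

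Clustering of all R1 cells placed most selected cells of the lines in different clusters. Of 11 clusters, 7 and 8 held 79 of the 86 selected WT cells (91.9%, 83.9 to 96.7) and 3 of the 97 selected dCD cells (3.09%, 0.642 to 8.77). Both were PGC-like by markers, with a median fold of PGC markers over the other cells of 4.56 and 5.60. Lefty1, Fgf8 and the mesoderm gene T were among the leading genes of cluster 7. Since Igfbpl1, Ap3b2, BC048679 and Pdzd4 also lead these clusters and 4 of the 5 genes were among the variable genes, the clusters are not independent of the genes. With the 5 genes left out of the variable genes, a choice made after seeing the data, the pair with most selected WT cells held 94.2% of selected WT and 7.22% of selected dCD cells. That pair was larger (292 cells, of which 170 were also among the 174 cells of the first pair), and only its cluster 8 was PGC-like by markers, while its cluster 7 had a median fold of 4.07 for naive and 2.70 for PGC markers. The 2 clusters contained 168 WT and 6 dCD cells, and clusters that come mostly from 1 library may reflect that library.

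Within the WT cells of the pair, the genes marked different cells. Igfbpl1 was at 142 CPM in cluster 7 and 16.4 CPM in cluster 8, and BC048679 at 2.98 and 69.1 CPM. Pdzd4 was at 26.1 and 77.2 CPM. Ap3b2 (108 and 156 CPM) and Plekhg3 (50.7 and 61.8 CPM) were high in both. In the 89 unselected WT cells of the pair Igfbpl1 was at 118 CPM, Ap3b2 at 122, Plekhg3 at 56.9, Pdzd4 at 33.6 and BC048679 at 16.4 CPM, and in the 79 selected ones at 56.2, 137, 54.6, 63.2 and 47.6 CPM. Unselected cells were thus higher in Igfbpl1 and lower in Pdzd4 and BC048679. In the 6 dCD cells of the pair, Ap3b2 had 8 UMIs (93.2 CPM) against 129.8 CPM in WT, a dCD to WT ratio of 0.718 (0.307 to 1.43) that was not apart from 1. Pdzd4 had a ratio of 0.711 (0.145 to 2.13) and Plekhg3 of 0.418 (0.0502 to 1.54), also within counting error, while Igfbpl1 had 1 UMI and a ratio of 0.136 (0.00343 to 0.767). BC048679 had 0 UMIs in these cells, and its ratio could lie as high as 1.34. In the larger pair found with the 5 genes left out (277 WT and 15 dCD cells), ratios were 0.0653 for Igfbpl1 (0.00165 to 0.368), 0 for BC048679 (0 to 0.618), 0.363 for Ap3b2 (0.165 to 0.697), 0.458 for Plekhg3 (0.166 to 1.02) and 0.889 for Pdzd4 (0.478 to 1.52), but in the PGC-like cluster of that pair Ap3b2 was at 110.1 CPM in WT and 109 CPM in dCD (35.5 to 255, 3 cells).

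The selected dCD cells outside the pair lay in cluster 2 (45 cells), cluster 3 (26 cells), cluster 4 (18 cells) and others. In cluster 2, 6 of 7 naive pluripotency markers were at least 2-fold above the other cells, with a median fold of 8.90 for naive and 2.93 for PGC markers. The 94 selected dCD cells outside the pair had Ap3b2 at 24.4 CPM, Pdzd4 at 16.5 CPM, Plekhg3 at 12.2 CPM, BC048679 at 6.46 CPM and Igfbpl1 at 4.30 CPM. Only 7 selected WT cells lay outside the pair, so the lines could hardly be compared there. Ratios of dCD to WT were 0.261 for Igfbpl1 (0.0467 to 2.65), 0.296 for Plekhg3 (0.105 to 1.03), 0.401 for Pdzd4 (0.149 to 1.35) and 2.96 for Ap3b2 (0.497 to 120.3), none apart from 1, and BC048679 had 9 UMIs in dCD and 0 in WT. Whether the lower levels reflect less transcript per PGC-like cell or a different mixture of selected cells cannot be told apart from these data.

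Marker genes of several cell types differed as well. The 7 PGC markers together were at 842 CPM in selected WT and 499 CPM in selected dCD cells, 1.69-fold higher in WT (1.54 to 1.85). Dppa3 was the most abundant in both (232 and 179 CPM) and none was at 0. Dppa3 and Prdm1 are on this list and also selected the cells, so its level is in part set by the selection. Prdm14 did not differ beyond counting error (ratio 1.14, 0.577 to 2.26). The 7 naive markers were at 886 and 788 CPM, led by Klf2 at 370.5 CPM in WT and Zfp42 at 259.8 CPM in dCD, with Klf4 at 0 by selection, and Klf2 was lower in dCD (ratio 0.611, 0.531 to 0.703) while Tbx3 was higher (2.82, 1.99 to 4.05). Extraembryonic ectoderm markers were 4.53-fold higher in dCD (3.85 to 5.36), at 125 CPM in WT and 568 CPM in dCD, where Ascl2 was at 0. Rhox6 (29.9 and 288 CPM) and Rhox9 (42.0 and 258 CPM) carried this rise. Cdx2, the most abundant of the list in WT, fell from 42.7 to 6.25 CPM (ratio 0.146, 0.0638 to 0.297), and Elf5 and Ascl2 were at 0 in WT. The selected populations thus differed well beyond the 5 genes.

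Formative epiblast markers were at 48.4 CPM in WT and 115 CPM in dCD selected cells, with Otx2 (19.2 CPM) and Dnmt3b (78.5 CPM) the most abundant and none at 0. Extraembryonic mesoderm markers were at 48.4 and 85.4 CPM, with Hand1 the most abundant (28.5 and 46.5 CPM), with Postn at 0 in WT and Pitx1, Tbx4, Foxf1 and Postn at 0 in dCD. Each list was higher in dCD mainly through 1 gene, Dnmt3b (6.41 and 78.5 CPM) and Bmp4 (6.41 and 38.9 CPM), while Sox3 was lower (ratio 0.337, 0.139 to 0.743) and Tbx4 went from 15 to 0 UMIs. Endothelial markers (109.7 and 121 CPM) and nascent mesoderm markers (29.2 and 25.7 CPM) did not differ beyond counting error as sums, though Kdr went from 0 to 16 UMIs and Cldn5 fell from 19.2 to 8.33 CPM. A further marker list, not named here, was 2.24-fold higher in dCD (1.56 to 3.27). Endoderm and erythroid markers had at most 8 UMIs in either group, and 2-cell embryo markers had 0 UMIs in WT and 7 in dCD, beyond counting error. The part of these lists in the falls of the 5 genes was not tested.

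Across E14Tg2a stages, which the choice of the genes in R1 did not use, the 5 genes had different courses, although listed PGCLC had served to define PGCLC genes. In that defining contrast, all 5 genes were at least 2-fold higher in listed PGCLC than in remaining EB cells, where 5.07% of 11102 genes were higher and 21.1% changed, and this follows from the definition. Igfbpl1 was highest in d2 PGCLC at 37.5 CPM (30.8 to 45.2), and its interval was apart from that of the next group. It was at 7.98 CPM in d2 EpiLC, 6.58 in EpiSC, 5.69 in d4 PGCLC, 4.36 in d1 EpiLC, 4.21 in remaining d4 EB, 3.84 in remaining d2 EB, 2.56 in d3 EpiLC, 2.28 in S+L ESC and 2.17 in 2i ESC. Below the peak no neighbours in this order differed beyond their intervals, but d2 EpiLC stood 1.83-fold above d1 EpiLC (1.27 to 2.65), and d3 EpiLC had 0.320 of the d2 EpiLC level (0.211 to 0.477). In d4 EB, Igfbpl1 had 6 UMIs in listed PGCLC, a ratio of 1.35 to remaining cells (0.465 to 3.24), so its level in d4 PGCLC was not apart from that in remaining cells. It was detected in 13.6% of d4 PGCLC (5.17 to 27.4) and 4.32% of remaining d4 EB cells (2.38 to 7.14), with overlapping intervals. After thinning to 15374 UMIs the shares were 15.8% (6.02 to 31.3) and 3.07% (1.41 to 5.75), which were just apart but rest on 6 PGCLC with 1 UMI each.

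BC048679 was highest in d4 PGCLC at 32.2 CPM (22.3 to 45.1), followed by d2 PGCLC at 11.3 CPM (7.74 to 15.8), and both steps down in the order exceeded the intervals. It was at 1.29 CPM in remaining d4 EB, 0.768 in remaining d2 EB, 0.297 in S+L ESC, 0.228 in 2i ESC and 0.0896 in d2 EpiLC. It had 0 UMIs in EpiSC and in EpiLC at d1 and d3, which at a limit of 3 counts allows, for d1 EpiLC, d3 EpiLC and EpiSC, up to 0.273, 0.213 and 0.235 CPM. Neighbours from remaining d4 EB downward did not differ beyond their intervals. Listed PGCLC held 77.0% of its EB UMIs (66.8 to 85.4) and 16.4% of all EB UMIs.

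Ap3b2 was at 20.9 CPM in d4 PGCLC (13.1 to 31.6) and 15.0 CPM in d2 PGCLC (10.9 to 20.1), which did not differ beyond their intervals, and d2 PGCLC was apart from the next group. It was at 6.05 CPM in 2i ESC, 4.75 in d2 EpiLC, 3.76 in EpiSC, 1.96 in remaining d2 EB, 1.29 in S+L ESC and 0.585 in remaining d4 EB, while d1 EpiLC had 1.18 CPM and d3 EpiLC 0.994 CPM. Ordered by level, no neighbours among these differed beyond their intervals, but d2 EpiLC stood 4.02-fold above d1 EpiLC (2.16 to 8.04), and d3 EpiLC had 0.209 of the d2 EpiLC level (0.107 to 0.383). The adaptor subunit was thus higher at d2 than on either side of it.

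Plekhg3 was highest in d2 PGCLC at 27.3 CPM (21.6 to 33.9), apart from d4 PGCLC at 12.3 CPM (6.56 to 21.1). It was at 9.73 CPM in remaining d2 EB, 8.62 in EpiSC, 7.77 in 2i ESC, 7.14 in remaining d4 EB, 6.00 in d1 EpiLC, 5.47 in d3 EpiLC, 4.84 in d2 EpiLC and 4.65 in S+L ESC. From d4 PGCLC downward no neighbours differed beyond their intervals. Plekhg3 was the member with the most even level over the groups outside PGCLC.

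Pdzd4 was not a gene of PGCLC above all: it was highest in d2 EpiLC at 48.1 CPM (44.2 to 52.4) and d1 EpiLC at 44.9 CPM (41.0 to 49.1), which did not differ beyond their intervals. It was at 30.3 CPM in d3 EpiLC, 22.8 in d4 PGCLC, 18.5 in S+L ESC, 17.8 in EpiSC, 15.0 in d2 PGCLC, 5.14 in 2i ESC, 2.57 in remaining d4 EB and 1.96 in remaining d2 EB. Steps beyond the intervals lay between d1 and d3 EpiLC and between d2 PGCLC and 2i ESC. Pdzd4 was thus on before germline induction, and within EB it was 7.64-fold higher in d2 PGCLC than in remaining d2 EB cells (4.52 to 13.3).

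**Figure D3:**
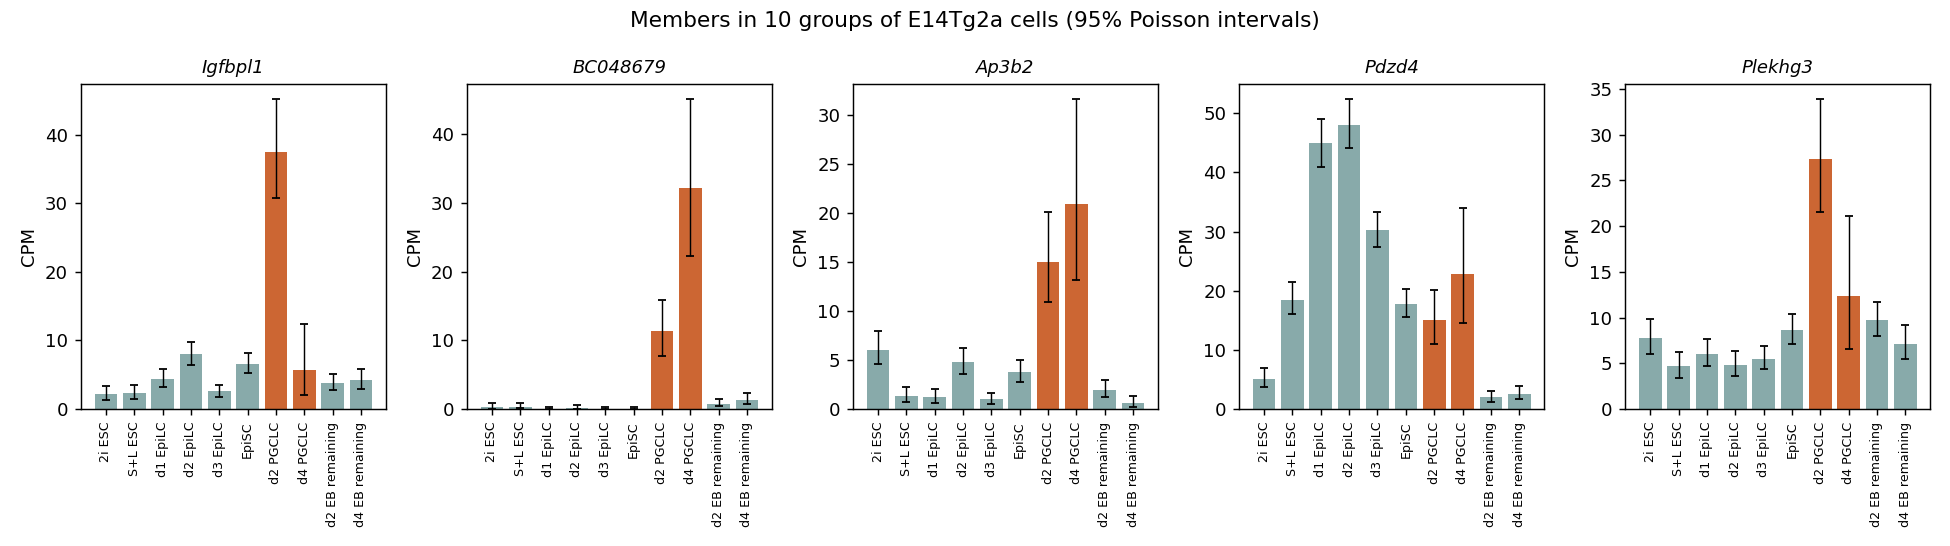
CPM of each gene (vertical axis, a scale of its own in each panel) in 10 groups of E14Tg2a cells, with orange bars for listed PGCLC and lines for 95% Poisson intervals. Igfbpl1 peaks in d2 PGCLC (37.5 CPM), BC048679 in d4 PGCLC (32.2 CPM) and Pdzd4 in d2 EpiLC (48.1 CPM).

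Between stages the members were counted among genes past the UMI minimum. From 2i ESC to d2 EpiLC, Igfbpl1 and Pdzd4, 2 of 4 genes, were at least 2-fold higher, where 18.1% of 8412 genes changed. Igfbpl1 rose 3.68-fold (2.22 to 6.39) and Pdzd4 9.37-fold (6.90 to 13.0). From d2 EpiLC to d2 PGCLC, 4 of 4 changed, where 17.6% of 9513 genes did: Igfbpl1 (4.70-fold, 3.52 to 6.29), Plekhg3 (5.63-fold, 3.94 to 8.11) and Ap3b2 (3.16-fold, 2.07 to 4.80) were higher, and Pdzd4 was lower, at a ratio of 0.312 (0.224 to 0.424). This contrast shares the listed PGCLC with the definition of PGCLC genes. BC048679 was below the UMI minimum in both steps, with 33 UMIs in d2 PGCLC and 1 in d2 EpiLC (126-fold, 21.0 to 5106).

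From d2 to d4 PGCLC, 3 of 5 genes changed at least 2-fold, where 11.0% of 6125 genes did. BC048679 was 2.87-fold higher (1.72 to 4.77), Igfbpl1 was at a ratio of 0.152 (0.0545 to 0.341) and Plekhg3 at 0.452 (0.231 to 0.818). With median-ratio scaling, or with PGCLC taken as cells with at least 2 of 4 PGC markers, 1 gene was lower in place of 2. With thinned cells, where fewer genes reached the UMI minimum, 1 was lower and 0 higher, though the log2 ratio of BC048679 was still 1.21. Ap3b2 (1.39, 0.794 to 2.37) and Pdzd4 (1.52, 0.882 to 2.55) did not differ beyond counting error. EpiSC differed from d2 EpiLC by at least 2-fold in 1 of 4 genes, Pdzd4 (ratio 0.370, 0.315 to 0.432), where 11.6% of 9242 genes changed. Between S+L and 2i ESC, 1 of 2 genes changed, Pdzd4 at 3.60-fold (2.59 to 5.11), where 7.63% of 8075 genes did. Ap3b2, below the minimum there with 13 and 53 UMIs, had a ratio of 0.213 (0.106 to 0.395).

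Among genes with at least 50 UMIs, no listed relative of Ap3b2, Pdzd4 or Igfbpl1 was at least 2-fold lower in selected dCD cells. Of all 6338 such genes, 1.92% were at least 2-fold lower and 6.86% at least 2-fold higher. Of 6 AP-3 subunits with at least 50 UMIs, Ap3b2 was the 1 at least 2-fold lower, and the list had a median log2 ratio of 0.16 against 0.06 over all genes. Ap3b1, the widely expressed counterpart of Ap3b2, was at 57.7 CPM in selected WT and 86.1 CPM in selected dCD cells, a ratio of 1.49 (1.12 to 2.00). Of 9 subunits of the related AP-1 and AP-2 complexes, 0 were lower and Ap2m1 was higher (median 0.17). Of 10 PDZ genes only 3 reached the minimum, with Pdzd4 lower and Pdzd11 higher (median 0.14). On the insulin-like growth factor axis, 8 of 13 genes reached it. Of these 8, 1 was lower, Igfbpl1, and the receptor Igf1r and the binding proteins Igfbp2 and Igfbp5 were higher (median 0.26). Over all d4 EB cells this list did fall, with 5 of 12 genes at least 2-fold lower (Igf2, Igf2r, Igfbp4, Igfbp5 and Igfbpl1; median −0.93) and Igfbp2 higher, where 4.45% of all genes were lower. Extraembryonic mesoderm markers fell in the same contrast, with ratios of 0.264 for Hand1, 0.0678 for Pitx1 and 0.0492 for Tbx4, and cluster 5, led by Tbx4 and Pitx1, held 371 WT and 0 dCD cells. A link of these markers or of cluster 5 to the fall of the growth factor list was not tested. In selected cells each list with a fall thus had its member alone at least 2-fold lower, and that member had been picked for its fall.

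Genes most like each member were named by Pearson correlation of log2(CPM + 1) over the 10 E14Tg2a groups among 12271 genes with at least 100 UMIs. These groups include cells of the same libraries and differ in depth, so the values only describe. Igfbpl1 was most like Zbtb49 (0.92), Fbxo38 (0.91) and Dok1 (0.91), and Plekhg3 most like Thumpd2 (0.91), Ep400 (0.90) and Brd1 (0.89). Ap3b2 was most like Atg101 (0.91), Mtif2 (0.91) and Adipor2 (0.89), and Pdzd4 most like Xk (0.96), Cry1 (0.95) and Pick1 (0.95). BC048679 was most like 4930556M19Rik (0.97), Abhd10 (0.95) and Fam221a (0.95). Between members, r was 0.78 for Igfbpl1 and Plekhg3, 0.77 for BC048679 and Ap3b2, and −0.23 for Pdzd4 and Plekhg3. Of these 15 genes, Fam221a alone was at least 2-fold lower in selected dCD cells, from 27 UMIs in WT (19.2 CPM) to 5 in dCD (3.47 CPM), a total below the UMI minimum.

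Ap3b2 and BC048679 are neighbours. On GRCm38, Ap3b2 lies at chr7:81460399-81493925 and BC048679 at chr7:81494275-81498281, both on the minus strand and 349 bp apart, with BC048679 upstream. Igfbpl1 lies at chr4:45809468-45826923 (minus strand), Pdzd4 at chrX:73793359-73824969 (minus strand) and Plekhg3 at chr12:76530891-76580488 (plus strand). Next to Igfbpl1, Aldh1b1 was at 14.2 CPM in selected WT and 6.25 CPM in selected dCD cells (ratio 0.439, 0.176 to 1.01), and next to Pdzd4, Ssr4 was at 129.7 and 139 CPM. Sptb, which overlaps the end of Plekhg3 on the opposite strand, was at 18.5 and 13.2 CPM (0.712, 0.373 to 1.34). Except for the pair on chromosome 7, no neighbour with counts differed beyond counting error. The noncoding genes AI463170 in Plekhg3 and Gm14817 in Pdzd4 lie antisense to their hosts, with 4 and 0 UMIs in selected WT cells. Strand use in counting is not given in the sources used here, and whether reads of host and antisense gene were kept apart was not tested. Reads that run from BC048679 into Ap3b2 on the same strand could be split between both.

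**Figure D4:**
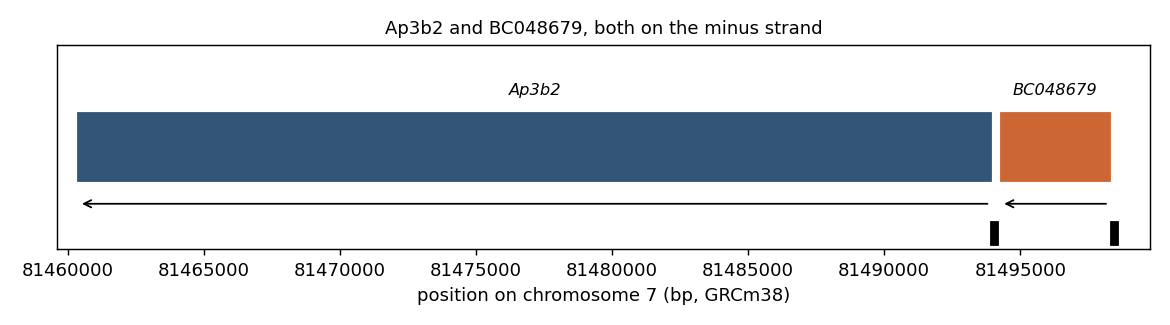
Map of Ap3b2 (blue) and BC048679 (orange) on chromosome 7 (horizontal axis in bp of GRCm38), with arrows for the direction of transcription and black bars for the promoter windows. The genes lie 349 bp apart, and the Ap3b2 window falls between them.

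Promoters were matched for 3 of the 5 genes, BC048679, Ap3b2 and Pdzd4, and not for Igfbpl1 and Plekhg3. They are shown as a description only, since being lower together follows from how the genes were chosen. Each is given as the 250 bases before the start in RefSeq on GRCm38.p6, minus strand, 5′ to 3′, with capitals for CpG dinucleotides. The windows are chr7:81498331-81498580 for BC048679, chr7:81493926-81494175 for Ap3b2 and chrX:73824970-73825219 for Pdzd4. They hold 5, 7 and 17 CpG and 53.2%, 55.2% and 66.0% GC, where the medians of 32841 promoters are 6.00 CpG and 52.4% GC.
BC048679: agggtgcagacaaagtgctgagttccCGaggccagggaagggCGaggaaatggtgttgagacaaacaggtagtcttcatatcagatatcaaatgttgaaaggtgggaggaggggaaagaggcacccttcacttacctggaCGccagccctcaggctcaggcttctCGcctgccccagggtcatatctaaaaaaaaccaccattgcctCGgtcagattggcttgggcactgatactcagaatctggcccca
Ap3b2: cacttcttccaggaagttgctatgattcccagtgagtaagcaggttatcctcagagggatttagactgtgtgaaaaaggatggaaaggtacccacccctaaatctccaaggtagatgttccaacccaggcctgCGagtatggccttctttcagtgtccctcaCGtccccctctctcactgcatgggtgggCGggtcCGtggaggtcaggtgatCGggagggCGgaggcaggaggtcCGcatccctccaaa
Pdzd4: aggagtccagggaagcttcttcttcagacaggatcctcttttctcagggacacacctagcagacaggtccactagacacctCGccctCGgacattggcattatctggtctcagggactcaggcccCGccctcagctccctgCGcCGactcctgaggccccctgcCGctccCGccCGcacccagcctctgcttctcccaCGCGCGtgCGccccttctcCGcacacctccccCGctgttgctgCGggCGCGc

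Pdzd4 had the promoter richest in CpG of the 3, and the pair on chromosome 7 was close to the median. A search of both strands for 8 motifs found 0 in the 3 windows. The motifs were GCCNNNGGC (TFAP2, in 13.7% of all promoters), CACGTG (E-box, 6.02%), AAGGTCA (ESRRB, 4.08%), CCACACCC (KLF, 3.20%), ATGCAAAT (octamer, 1.60%), TAATCC (OTX, 6.25%), GAAAGTG (PRDM1, 4.01%) and AGGTGTGA (T-box, 1.12%). These letters are absent from these windows, which says nothing of the factors.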

How the data were processed

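Droplet-based single-cell RNA-seq was done on 10 libraries of mouse ESC and their derivatives. The authors deposited UMI counts per gene and cell, made with Cell Ranger, in 1 table for E14Tg2a and 1 for R1. As the submitters describe it, reads were mapped to GRCm38, the E14Tg2a libraries were brought to equal mapped reads per cell when combined, and R1 cells with fewer than 2000 genes were removed. E14Tg2a cells were assigned to stages and PGCLC through the barcodes listed in the study's supplement, and 0 columns of values were unused. The 5 genes and the gene lists were chosen with earlier results of these data known. UMIs were summed per group and given as CPM. For log2 ratios 1 CPM was added to both levels, and calls used a 2-fold threshold among genes with at least 50 UMIs where selected or listed cells entered and 100 otherwise. Named genes were the 5 members, Kmt2c and Kmt2d, the 3 genes most like each member, the 2 next outside the choice, adjacent genes and fixed lists, of which 2 are not reported here; genes of ranks 1 to 9 and leading genes of clusters were named after seeing their values. Intervals were exact (Poisson, conditional, Clopper-Pearson) at 95%. Cells were thinned to 15374 UMIs (E14Tg2a) or 6831 UMIs (R1), leaving out shallower cells (8 of the selected dCD and 0 of the selected WT cells). R1 cells were clustered with Seurat 5.3.0 in R 4.3.3 (2000 variable genes, 10 components, resolution 0.3). Scrublet in scanpy 1.11.5 called 0.441% to 7.61% of cells of a library as doublets, and these cells were dropped only in an alternative. Python 3.11.15, numpy 2.4.6, scipy 1.17.1 and pandas 2.3.3 were used, and the calls were tried on simulated counts. These counts held Poisson error only, without variation between cells or libraries, so they could not check the calls against such variation. Depth limits precision: 1 to 3 UMIs of a gene give only wide intervals.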

Additional observations from a re-analysis of the deposited data

How the results depend on the processing

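Of 330 log2 ratios of the 5 genes under the alternatives, 316 stayed within the counting interval, 14 moved out of it, and of those at least 2-fold 0 changed sign. Below 2-fold, BC048679 changed sign from −0.17 to 0.30 in d2 EpiLC against 2i ESC with thinning, and from 0.08 to −0.02 in S+L against 2i ESC with the mean over cells. In selected cells the point values of all 5 genes were lower in dCD under every alternative run, with log2 ratios from −3.92 to −2.78 for Igfbpl1, −4.01 to −2.50 for BC048679 (leaving out an alternative with 0 UMIs in dCD), −2.69 to −0.47 for Ap3b2, −2.92 to −1.22 for Plekhg3 and −2.29 to −0.48 for Pdzd4. The values nearest to 0 for Igfbpl1, Ap3b2, Plekhg3 and Pdzd4 came from all cells of the pair of PGC-like clusters, an alternative chosen after seeing the data that rests on 6 dCD cells, where 3 genes were at least 2-fold lower, as were 16.0% of all genes against 1.92%. Selected cells that passed the Dppa3 threshold (59 WT and 73 dCD) and those that passed the Prdm1 threshold (48 WT and 34 dCD), whatever the other marker, were also tried after seeing the data. Smaller subsets were not among the alternatives, and in some of them point values were not lower in dCD. BC048679 was at 2.39 CPM in WT and 2.90 CPM in dCD in Prdm1 only cells, with 1 UMI each. Outside the pair, Ap3b2 had a dCD to WT ratio of 2.96 (0.497 to 120.3), and BC048679 had 9 UMIs in dCD and 0 in WT. With thinned cells, fewer genes reached the UMI minimum, and the members at least 2-fold lower numbered 1 in selected cells. Over all d4 EB cells that count was 1, in place of 3, with thinning, with the mean over cells and with at least 3000 genes per cell. Thinning also gave 1 higher gene from 2i ESC to d2 EpiLC in place of 2, 1 lower in place of 2 and 0 higher in place of 1 from d2 to d4 PGCLC, and 0 higher in place of 1 in S+L against 2i ESC. From d2 to d4 PGCLC, median-ratio scaling and PGCLC defined by at least 2 of 4 markers each left 1 lower gene. The cause was not tested except for thinning. With a minimum of 10 UMIs, 1 gene was lower in S+L ESC (Ap3b2) in place of 0, and the shares of all genes past 2-fold were 13.6% higher (6.86%) and 3.78% lower (1.92%) in selected cells, 5.98% higher (3.05%) and 12.5% lower (7.95%) in d4 PGCLC, 6.13% lower in EpiSC (4.00%) and 9.73% higher in S+L ESC (5.04%). With PGCLC defined by 2 of 4 markers, 10.6% of genes were lower than in remaining EB cells, against 16.1%. Spearman correlation named 1 of the same 15 most similar genes, so those names depend on the measure. No paired analysis was possible because each group has 1 library.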
